A study of Mus musculus with 12 samples.

Results

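General photoreceptor transcription factors are the gene regulators that rods and cones share, as opposed to the factors that choose between rod and cone or between opsins. They are described here through 10 genes chosen by name: Crx, Otx2 and Rax of the homeodomain class, Neurod1 and Neurod4 of the basic helix-loop-helix class, Mef2c and Mef2d of the MADS-box class, and Prdm1, Casz1 and Samd7. All 10 of 10 were read by a probe that names 1 gene, among 19902 genes so measured. The levels come from 12 Affymetrix mouse arrays, each hybridised with RNA of fluorescent cones sorted from the retina of C3H/HeNCrl mice. All animals, controls included, carried the Pde6b rd1 mutation, with which rods die early and cones lose function and die later. All had received an adeno-associated virus under the retina at P21 to P28, with the mouse cone arrestin promoter (mCAR) in front of a fluorescent protein. The control construct mCAR-EGFP was sampled at 110 days and at 220 days, with 4 arrays of 500 sorted cells each. The construct mCAR-eNpHR-EYFP, which adds a light-driven chloride pump, was sampled at 165 days, with 4 arrays of 300 sorted cells each. The arrays are named biological replicates. The cells were selected by the activity of the Arr3 promoter, Arr3 being the gene of cone arrestin.

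As background, Otx2 acts in photoreceptor precursors, where it switches on Crx. Crx, a paired-type homeodomain protein of the same family, then drives the phototransduction and outer segment genes of both rods and cones and stays on in the adult. Rax is the eye field homeobox gene that acts with both on photoreceptor promoters. Neurod1 maintains photoreceptors, Neurod4 acts in amacrine and bipolar cell genesis, and Prdm1, also called Blimp1, keeps Otx2-positive precursors from turning into bipolar cells. Mef2d works together with Crx at photoreceptor enhancers, Casz1 is a zinc finger protein of retinal progenitors and rods, and Samd7 is a Polycomb-associated repressor of photoreceptors. Otx2 is also made in bipolar cells and the pigment epithelium, Neurod1 in amacrine cells, Rax in Müller glia and Mef2c in microglia and endothelium. In RNA of sorted cells, fewer cells of a type and less RNA per cell cannot be told apart.

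3 features of the arrays bear on every value. The EGFP columns of the deposited table stood beside wrong probes from table row 13591 on, and they were realigned to the eNpHR-EYFP columns. By that repair Neurod4, Prdm1 and Mef2c had stood in place and the other 7 genes were moved by 5 to 16 rows. The eNpHR-EYFP arrays were brighter at the upper end, with a 95th percentile of 173 to 186 intensity units against 115 to 135 on the EGFP arrays, while the medians were 6.6 to 7.1 on all arrays, a log2 level of 2.72 to 2.83. The mean log2 level of 18 cone genes was 4.31, 5.96, 6.31 and 4.57 on EGFP replicates 1 to 4 at 110 days, 5.05, 5.60, 5.79 and 5.73 at 220 days, and 6.11, 5.83, 6.68 and 6.96 on the eNpHR-EYFP arrays. Replicates 1 and 4 of 110 days and replicate 1 of 220 days were the EGFP arrays lowest in Arr3, and results are also given without them. Leaving these arrays out was decided by a cone gene, so it raises the EGFP level of cone genes by itself. The cone gene mean is also used as a covariate. It differs between the constructs itself, and most of its genes are driven by Crx. The covariate can thus take out part of a difference between constructs, for Crx and the other 9 genes too.

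Crx stood clearly apart between the constructs. Its log2 level was 2.91, 3.79, 4.05 and 3.25 on EGFP replicates 1 to 4 at 110 days, 3.19, 3.25, 3.64 and 3.62 at 220 days, and 4.93, 4.72, 5.50 and 5.38 on the eNpHR-EYFP arrays. Every eNpHR-EYFP array lay above every EGFP array, and the EGFP ages overlapped fully. The group means were 3.50 ± 0.52, 3.42 ± 0.24 and 5.13 ± 0.37 (SD, n = 4 each). Crx was dim on the EGFP arrays, with a lowest value of 2.91 where the array medians were 2.72 to 2.83. How far its probe stood above background there is unknown, so the size of the fold is uncertain. Crx rose by a log2 difference of 1.67 ± 0.22 (SE) from the mean of both EGFP ages to eNpHR-EYFP, 3.18-fold, with an adjusted p of 0.000233 by limma. The call held in all 22 alternatives in which the gene was fitted, with differences of 1.13 to 1.81 and adjusted p of 0.000159 to 0.00149. The lowest of these differences came with the cone gene mean as a covariate, and with those 3 low-Arr3 arrays left out it was 1.42. Crx was at 3.79 and 4.05 on replicates 2 and 3 of 110 days, with cone means of 5.96 and 6.31. On eNpHR-EYFP replicates 1 and 2 it was at 4.93 and 4.72, with cone means of 6.11 and 5.83. These arrays, picked for their similar cone means, are given as a description. The part of the cone content in the Crx values was not tested.

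The promoter window of Crx is shown because this gene differed most upward, those of Casz1 and Samd7 because they hold the same motif, and that of Neurod4 because it fell. An Otx2 window that also holds the motif is not shown. They are RefSeq windows of GRCm38.p6, from 250 bases before to 50 bases after the annotated start, 5′ to 3′ on the gene's strand. Capitals mark TAATCC or its reverse complement GGATTA, the core bound by the homeodomains of Crx and Otx2.
Crx, chr7:15879906-15880205, minus strand: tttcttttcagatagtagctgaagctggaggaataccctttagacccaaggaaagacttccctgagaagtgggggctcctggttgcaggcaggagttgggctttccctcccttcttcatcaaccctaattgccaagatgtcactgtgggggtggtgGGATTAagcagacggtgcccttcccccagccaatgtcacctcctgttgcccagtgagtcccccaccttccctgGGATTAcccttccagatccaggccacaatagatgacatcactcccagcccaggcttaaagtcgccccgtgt
Casz1, 1 of 2 windows, chr4:148889097-148889396, plus strand: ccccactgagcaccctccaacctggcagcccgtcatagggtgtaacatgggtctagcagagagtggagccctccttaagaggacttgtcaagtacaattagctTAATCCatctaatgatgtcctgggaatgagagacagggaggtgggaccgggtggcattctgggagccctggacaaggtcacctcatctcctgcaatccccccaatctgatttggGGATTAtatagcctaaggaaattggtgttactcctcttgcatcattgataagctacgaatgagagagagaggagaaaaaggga
Samd7, chr3:30746043-30746342, plus strand: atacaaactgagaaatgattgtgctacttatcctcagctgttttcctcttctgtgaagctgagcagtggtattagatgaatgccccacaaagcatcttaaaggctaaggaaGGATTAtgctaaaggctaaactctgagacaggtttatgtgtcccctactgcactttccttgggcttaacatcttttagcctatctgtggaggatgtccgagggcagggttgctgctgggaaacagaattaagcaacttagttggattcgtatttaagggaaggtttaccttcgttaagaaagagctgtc
Neurod4, 1 of 2 windows, chr10:130280205-130280504, minus strand: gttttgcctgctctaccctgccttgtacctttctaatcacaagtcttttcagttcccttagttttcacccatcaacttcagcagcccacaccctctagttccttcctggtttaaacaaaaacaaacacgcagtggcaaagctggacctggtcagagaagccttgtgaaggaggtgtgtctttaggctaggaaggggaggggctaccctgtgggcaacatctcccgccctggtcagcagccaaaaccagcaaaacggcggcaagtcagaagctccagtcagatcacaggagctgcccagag
The Crx window holds the motif with starts 94 and 21 bases before the start site, the Casz1 window at 147 and 33 bases, and the Samd7 window at 139 bases. Windows were matched by symbol for 9 of the 10 genes, all but Rax, 16 windows in all. The letters TAATCC on either strand occurred in 4 of these 16 windows, 1 each of Crx, Otx2, Samd7 and Casz1, and in 7.06% of 32851 windows of this length. The E-box CANNTG of helix-loop-helix factors occurred in 9 of the 16 and in 72.3% of all windows. CTANNNNTAG, a loose form of the MEF2 core that lets any base stand at N, occurred in 0 of the 16 and in 3.69% of all. Windows of the same gene can overlap, as some of Otx2 and those of Neurod4 do, so the 16 are not independent. A match is a match of letters in this window only.

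Otx2, the regulator above Crx, did not pass between the constructs. Its log2 level was 6.39, 6.69, 6.19 and 6.38 at 110 days, 5.68, 5.35, 6.23 and 6.21 at 220 days, and 6.64, 6.44, 6.25 and 6.58 on the eNpHR-EYFP arrays. The lowest values were those of replicates 1 and 2 of 220 days, and the eNpHR-EYFP arrays lay within the range of the 110-day arrays. The difference between constructs was 0.34 ± 0.17 with a 95% confidence interval of -0.03 to 0.70 (limma adjusted p = 0.157), and after quantile normalization it was -0.10. Against 220 days alone it was 0.61 ± 0.19 (adjusted p = 0.0421) and against 110 days alone 0.07 ± 0.19 (adjusted p = 0.843). Within an array the log2 level of Crx minus that of Otx2 ran from -3.49 to -2.11 on the 8 EGFP arrays and from -1.72 to -0.76 on the 4 eNpHR-EYFP arrays. The means of this difference were 1.33 apart, and 1.54 after quantile normalization. This pair and the other 2 pairs of related genes set side by side were chosen, with the quantile alternative, after their values had been seen, so they are given as a description with no test.

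Rax, the third homeodomain gene, was at 4.42, 5.13, 5.89 and 4.08 at 110 days, 4.74, 5.11, 4.90 and 5.49 at 220 days, and 5.66, 5.01, 6.26 and 6.20 on the eNpHR-EYFP arrays. Only eNpHR-EYFP replicates 3 and 4 lay above all EGFP arrays. The difference of 0.81 ± 0.33 did not pass (95% interval 0.09 to 1.53, limma adjusted p = 0.0879). It passed without replicate 3 of 110 days (0.98, adjusted p = 0.0213) or replicate 2 of eNpHR-EYFP (1.07, adjusted p = 0.0397), and was 0.04 with the cone gene mean as a covariate (adjusted p = 0.926), within a range of adjusted p from 0.0213 to 0.926 over its alternatives. The mean log2 level of the 15 Müller glia genes, cells that also make Rax, was 4.73 to 5.71 at 110 days, 5.35 to 5.64 at 220 days and 5.31 to 6.42 on the eNpHR-EYFP arrays, and 3 of the 15 rose, Clu, Vim and Car2, with 0 falling. Among all genes 23% rose and 10.1% fell, and the part of these cells in the Rax values was not tested.

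Of the helix-loop-helix genes, Neurod4 fell and Neurod1 did not pass. Neurod4 was at 5.80, 5.74, 4.92 and 5.61 at 110 days, 5.71, 5.42, 6.13 and 5.77 at 220 days, and 4.50, 4.86, 3.51 and 3.75 on the eNpHR-EYFP arrays. Every eNpHR-EYFP array lay below every EGFP array, although eNpHR-EYFP replicate 2, at 4.86, was close to replicate 3 of 110 days, at 4.92. Neurod4 fell by 1.48 ± 0.26 on the log2 scale, 2.79-fold, with an adjusted p of 0.00134 by limma. The call held in all 23 alternatives, with differences of -1.74 to -1.10 and adjusted p of 0.000608 to 0.0201. Neurod4 is a gene of interneuron genesis, and the 18 measured bipolar cell genes had mean log2 levels of 4.24 to 4.87, 4.51 to 5.0 and 4.32 to 4.98 at 110 days, at 220 days and with eNpHR-EYFP. Of these 18, 1 rose (Vsx1) and 2 fell (Lhx4 and Cabp5), and the other 15 did not pass. The 15 amacrine cell genes had means of 3.52 to 3.98, 3.92 to 4.42 and 3.91 to 4.54, and 5 rose while 0 fell. Among all genes 23% rose and 10.1% fell, and the part of these cells in the Neurod4 values was not tested.

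Neurod1 was at 9.46, 10.21, 10.33 and 9.75 at 110 days, 9.53, 9.61, 10.02 and 9.86 at 220 days, and 9.55, 9.50, 10.10 and 10.62 on the eNpHR-EYFP arrays. The groups overlapped almost fully. The difference between constructs was 0.10 ± 0.23 with a 95% interval of -0.40 to 0.59 (limma adjusted p = 0.794), and its sign was not fixed, at -0.36 after quantile normalization and -0.42 with the cone gene mean as a covariate. Within an array, Neurod4 minus Neurod1 ran from -5.41 to -3.66 on the EGFP arrays and from -6.86 to -4.64 on the eNpHR-EYFP arrays. The groups overlapped, with means -1.58 apart, and -1.38 after quantile normalization.

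**Figure D1:**
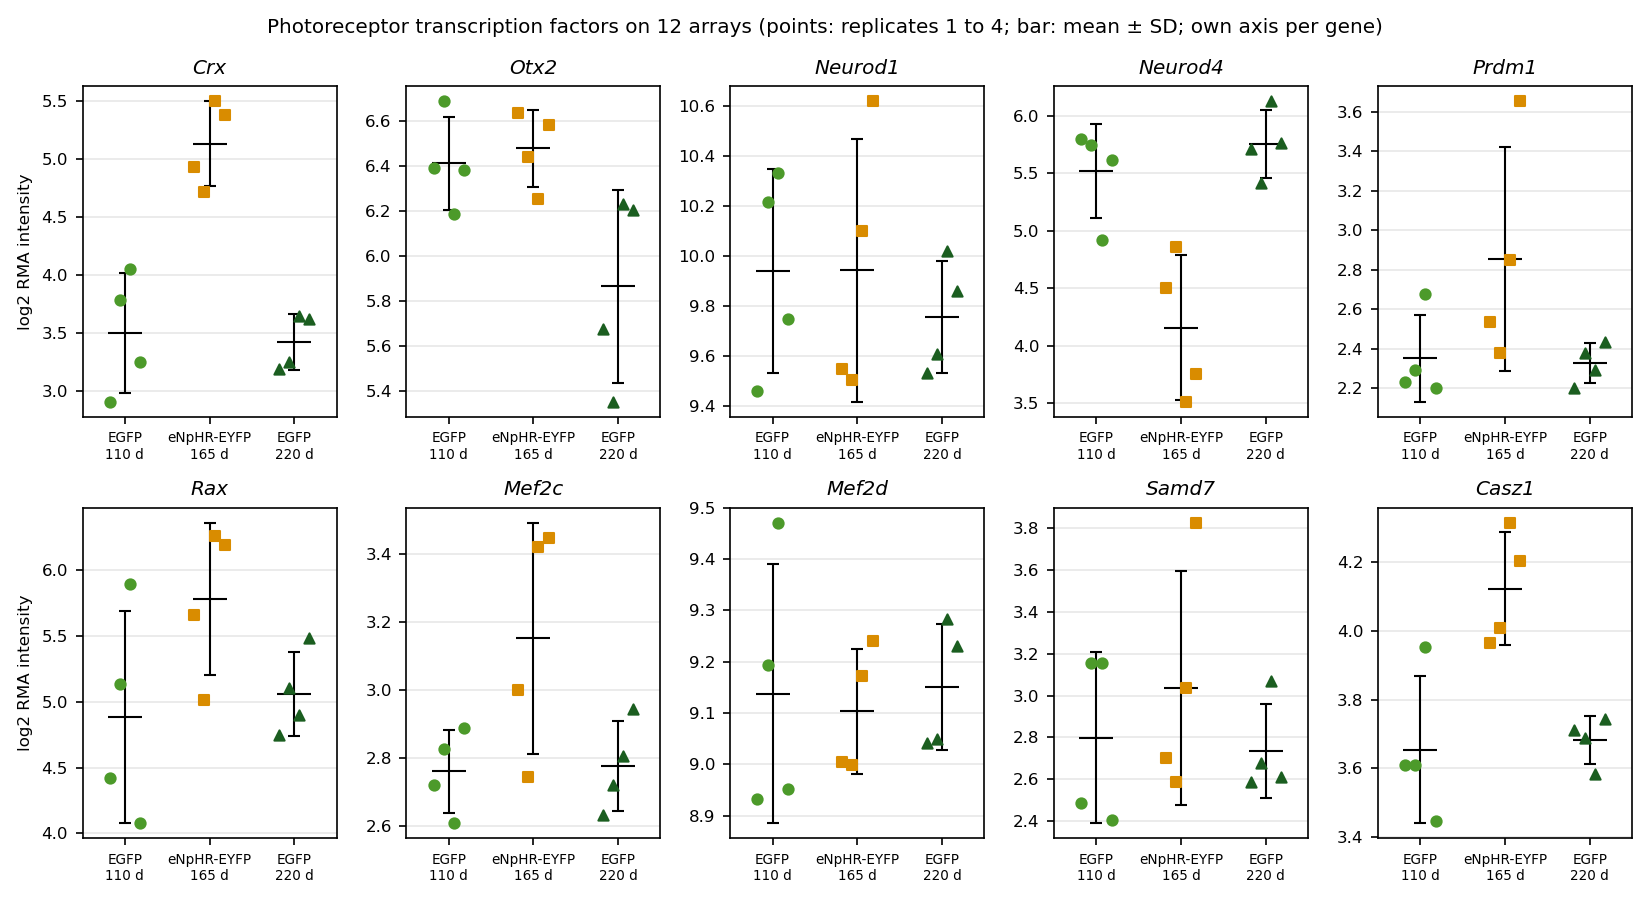
Log2 RMA intensity of the 10 transcription factors, 1 panel per gene with its own axis, on the 4 arrays each of EGFP at 110 days, eNpHR-EYFP at 165 days and EGFP at 220 days (points), with the mean and SD (bars). The eNpHR-EYFP points of Crx, 4.72 to 5.50, and Casz1, 3.96 to 4.31, lie above all EGFP points, and those of Neurod4, 3.51 to 4.86, lie below them.

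The MEF2 genes differed little. Mef2c was at 2.72, 2.83, 2.61 and 2.89 at 110 days, 2.63, 2.72, 2.81 and 2.94 at 220 days, and 3.0, 2.74, 3.42 and 3.45 on the eNpHR-EYFP arrays. The EGFP values lay near the array medians, so whether the probe stood above background there is unknown, and eNpHR-EYFP replicate 2 lay among them. Mef2c rose by 0.38 ± 0.13, 1.30-fold, with an adjusted p of 0.0498 by limma, a call at the edge of the threshold. It held in 10 of 23 alternatives and ended without each single array except replicate 4 of 220 days and replicate 2 of eNpHR-EYFP, with adjusted p of 0.0544 without replicate 4 of 110 days to 0.161 without replicate 3 of eNpHR-EYFP. It also ended with the cone gene mean as a covariate (0.285), with the 3 low-Arr3 arrays left out (0.131) and in a fit of the rows in place (0.0760), within a range of 0.00955 to 0.285. Of the 14 microglia genes, 6 rose and 1 fell, with mean levels of 2.49 to 2.65, 2.46 to 2.60 and 2.72 to 2.85 in the 3 groups. Of 9 endothelial genes 0 rose and 1, Flt1, fell, with means of 2.67 to 2.87, 2.61 to 2.87 and 2.51 to 2.56. Both lists lay near the array medians in all groups, and their part in the Mef2c values was not tested. Over all genes 23% rose and 10.1% fell.

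Mef2d, the partner of Crx at photoreceptor enhancers, was at 8.93, 9.19, 9.47 and 8.95 at 110 days, 9.04, 9.05, 9.28 and 9.23 at 220 days, and 9.0, 9.0, 9.17 and 9.24 on the eNpHR-EYFP arrays. The groups overlapped, with a difference of -0.04 ± 0.11 and a 95% interval of -0.28 to 0.20 (limma adjusted p = 0.823). After quantile normalization, which lowers bright probes on the eNpHR-EYFP arrays, Mef2d was called lower by -0.57 (adjusted p = 0.00101, range over alternatives 0.00101 to 0.982). A second Mef2d probe (10493177) was dim and did not follow the first (10493189). It was at 3.09 to 3.26 at 110 days, 3.17 to 3.25 at 220 days and 2.54, 2.70, 2.77 and 3.02 on the eNpHR-EYFP arrays, all below every EGFP array, and fell by 0.44 ± 0.09 (limma adjusted p = 0.00332). The probes of this gene thus disagree. Within an array, Mef2c minus Mef2d ran from -6.86 to -6.06 on the EGFP arrays and from -6.25 to -5.75 on the eNpHR-EYFP arrays. These ranges overlap, with means 0.42 apart, and 0.94 after quantile normalization, and Mef2c lies near the array medians.

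Among the remaining regulators, Casz1 was at 3.61, 3.61, 3.95 and 3.45 at 110 days, 3.71, 3.69, 3.58 and 3.74 at 220 days, and 3.96, 4.01, 4.31 and 4.20 on the eNpHR-EYFP arrays. All 4 eNpHR-EYFP arrays lay above all EGFP arrays, the lowest of them, 3.96, just above replicate 3 of 110 days at 3.95. Casz1 rose by 0.45 ± 0.10, 1.37-fold (limma adjusted p = 0.00679). The call held in 21 of 22 alternatives and ended with the cone gene mean as a covariate (0.30, adjusted p = 0.0910), within a range of 0.00198 to 0.0910. A second Casz1 probe (10510422), dimmer than the first (10510447), differed by 0.22 ± 0.10 and did not pass (limma adjusted p = 0.116), although its groups did not overlap either.

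Prdm1 was at 2.23, 2.29, 2.68 and 2.20 at 110 days, 2.20, 2.38, 2.29 and 2.43 at 220 days, and 2.54, 2.38, 2.85 and 3.66 on the eNpHR-EYFP arrays. The EGFP values lay below the array medians. On eNpHR-EYFP replicates 3 and 4, at 2.85 and 3.66, Prdm1 lay above all EGFP arrays, and without replicate 4 the difference between constructs was 0.25. The difference of 0.52 ± 0.20 did not pass (95% interval 0.08 to 0.95, limma adjusted p = 0.0767), but did without replicate 2 of eNpHR-EYFP (0.67, adjusted p = 0.0337), within a range of 0.0337 to 0.594. Samd7 was at 2.49, 3.15, 3.15 and 2.41 at 110 days, 2.58, 2.68, 3.07 and 2.61 at 220 days, and 2.70, 2.58, 3.04 and 3.83 on the eNpHR-EYFP arrays. Replicate 4 of eNpHR-EYFP was again the highest and the other 3 lay among the EGFP arrays. The EGFP values of Samd7 lay around the array medians, so whether its probe stood above background there is unknown. The Samd7 difference was 0.27 ± 0.23 with a 95% interval of -0.24 to 0.78 (limma adjusted p = 0.434).

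Counted over all 10 genes, 3 rose (Crx, Casz1, Mef2c), 1 fell (Neurod4) and 6 did not pass in eNpHR-EYFP cones by limma. Among all 19902 genes 23% were called higher and 10.1% lower, 33.1% in all (27.9% of the 34615 probes), so the counts of the transcription factors are near the background and say nothing particular about the group. Their median log2 difference was 0.36, against 0.07 for all genes, and 0.11 against 0.08 with the cone gene mean as a covariate. All eNpHR-EYFP arrays lay above all EGFP arrays for 2 of the 10, Crx and Casz1, against 14.2% of all genes, and below for 1, Neurod4, against 6.15%. After quantile normalization 3 rose and 2 fell, with Mef2d added, where 16.1% of all genes were higher and 12.4% lower. With the 3 low-Arr3 arrays left out, 2 rose (Crx, Casz1) and 1 fell (Neurod4), where 18.6% of all genes were higher and 7.31% lower. With the cone gene mean as a covariate 1 rose, Crx, and 1 fell, Neurod4, where 17.6% of all genes were higher and 6.29% lower. As that covariate can take out part of the difference between constructs, this count and the median of 0.11 are no clean correction for cone content.

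Set against each EGFP age alone, comparisons that share the eNpHR-EYFP arrays, the values were alike for the called genes. Crx differed by 1.63 ± 0.25 from 110 days and by 1.71 ± 0.25 from 220 days, Neurod4 by -1.36 ± 0.30 and -1.60 ± 0.30, and Casz1 by 0.47 ± 0.12 and 0.44 ± 0.12. Against 110 days 2 of 10 were called higher and 1 lower (all genes 19.9% and 8.11%, together 28%), and against 220 days 3 higher and 1 lower (17.8% and 7.4%, together 25.2%), with Otx2 as the third. Mef2c passed against neither age (adjusted p = 0.0874 and 0.106 by limma). The construct cannot be told apart from the sorted cell number, nor from a course with age that bends between the EGFP ages. It also cannot be told apart from any difference in processing between the EGFP and the eNpHR-EYFP arrays. Every eNpHR-EYFP array was brighter at the upper end than every EGFP array, and only the EGFP columns stood beside wrong probes. The part of processing in the differences between constructs was not tested.

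**Figure D2:**
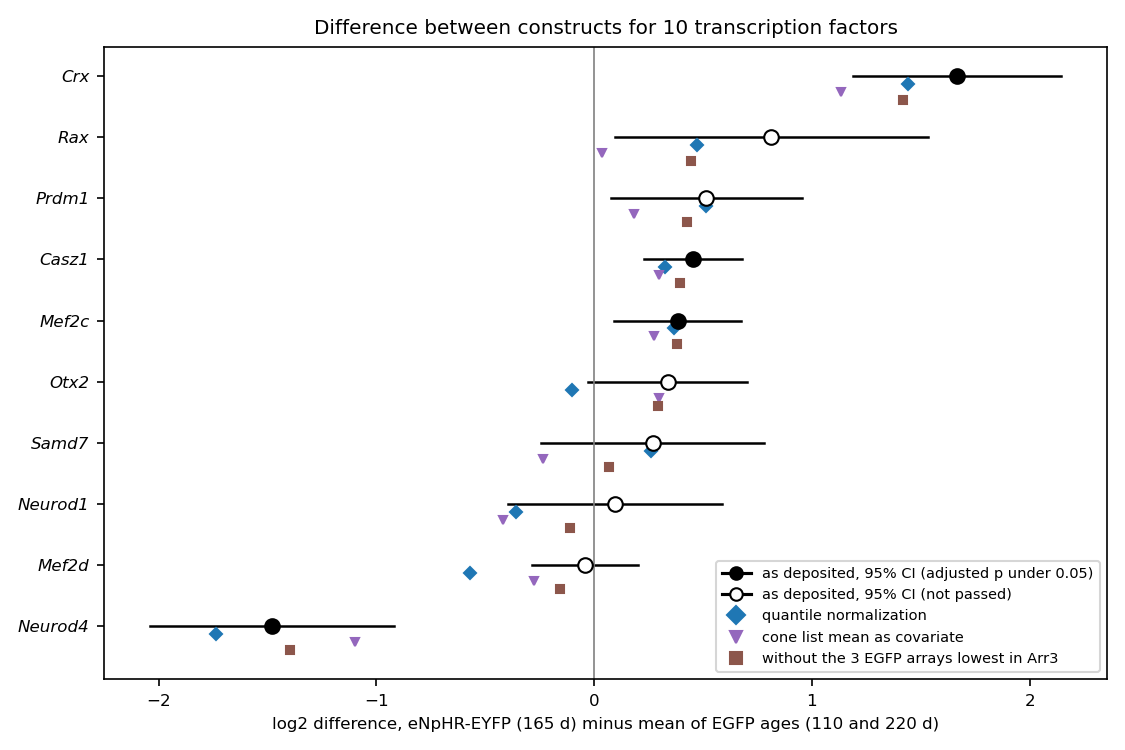
Log2 difference between eNpHR-EYFP at 165 days and the mean of both EGFP ages for each gene, with the 95% confidence interval of the limma fit (circles, filled where the adjusted p passed), and the value under 3 alternatives (coloured symbols). Crx stays at 1.13 or above and Neurod4 at -1.10 or below in all 4 settings, while Rax falls to 0.04 with the cone gene mean as a covariate and Mef2d to -0.57 after quantile normalization.

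Between 110 and 220 days in EGFP cones, none of the 10 transcription factors passed by limma, as for all genes, of which 0% were called. The lowest adjusted p was that of Otx2, 0.683, and the highest 0.993. Otx2 was lower at 220 days by -0.55 ± 0.19, with a 95% interval of -0.97 to -0.13, and was the 1 gene of 10 with an unadjusted p under 0.05, a share of probes that was 6.73% over the whole array. The intervals were -0.63 to 0.48 for Crx, -0.41 to 0.88 for Neurod4, -0.75 to 0.38 for Neurod1 and -0.65 to 1.01 for Rax, so changes within these bounds remain possible. The SD was larger at 110 than at 220 days for 8 of the 10 genes, as for Crx (0.52 and 0.24) and Rax (0.81 and 0.32), and smaller for Otx2 (0.21 and 0.43) and Mef2c (0.12 and 0.13). The 2 ages overlapped for all 10 genes, where all 220-day arrays lay above all 110-day arrays for 2.32% of all genes and below for 1.55%.

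The levels on the EGFP arrays were set against the cone gene signal of the same arrays. No gene passed after adjustment over all genes, and whether the 10 differ among themselves in this relation was not tested. Over the 8 EGFP arrays of both ages, Pearson's r with the mean of the 18 cone genes, none of which is among the 10, was 0.91 for Crx (Spearman's rho 0.96), 0.90 for Mef2d (0.93), 0.89 for Rax (0.86), 0.85 for Samd7 (0.95), 0.82 for Neurod1 (0.93), 0.74 for Prdm1 (0.72) and 0.63 for Casz1 (0.41). It was -0.03 for Otx2 (-0.07), -0.09 for Mef2c (-0.11) and -0.34 for Neurod4 (-0.19). For the 6 highest the two-sided exact permutation p of r was 0.00104 for Crx, 0.00144 for Mef2d, 0.0027 for Rax, 0.0129 for Samd7, 0.0163 for Neurod1 and 0.0272 for Prdm1, and that of rho was 0.000694, 0.00223, 0.0107, 0.00129, 0.00223 and 0.0494 in the same order. Adjusted over 19884 genes outside the cone list, the p of r was 0.25 for Crx, 0.278 for Mef2d and 0.332 to 0.566 for the other 4, so 0 of the 10 passed, and 0% of all genes did. An r above 0 with an unadjusted exact p under 0.05 was found for 6 of the 10 genes and for 4.06% of all genes, and one below 0 for 0 of the 10 and 3.87%. Only 0.387% of genes had an r as high as that of Crx. Most of the 18 cone genes are also among the Crx target genes described below, so this r sets Crx largely against genes it drives. Some cone genes, as Gucy2f and Cnga3, lay below the array medians on the EGFP arrays.

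Replicates 1 and 4 of 110 days lay farthest from the median cone gene signal. Without these 2 arrays r over the other 6 was 0.93 for Crx (exact permutation p = 0.00417), 0.92 for Neurod1 (0.00278), 0.86 for Mef2d (0.0347), 0.79 for Samd7 (0.00833), 0.79 for Rax (0.0597) and 0.78 for Prdm1 (0.0889), and it was 0.59 for Otx2 (0.199). Rax and Prdm1 thus no longer had an unadjusted p under 0.05. Each age has only 4 arrays, too few for an r of its own. Within 110 days replicates 2 and 3 were above replicates 1 and 4 in Crx, Neurod1, Rax, Mef2d, Samd7 and Prdm1. Within 220 days replicates 3 and 4 were above replicates 1 and 2 in Crx, Neurod1 and Mef2d, and also in Otx2, Neurod4 and Mef2c. Among the eNpHR-EYFP arrays, replicates 3 and 4, the highest in cone gene signal, were also the highest in Crx, Rax, Neurod1, Mef2c, Mef2d, Casz1, Prdm1 and Samd7, and the lowest in Neurod4.

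**Figure D3:**
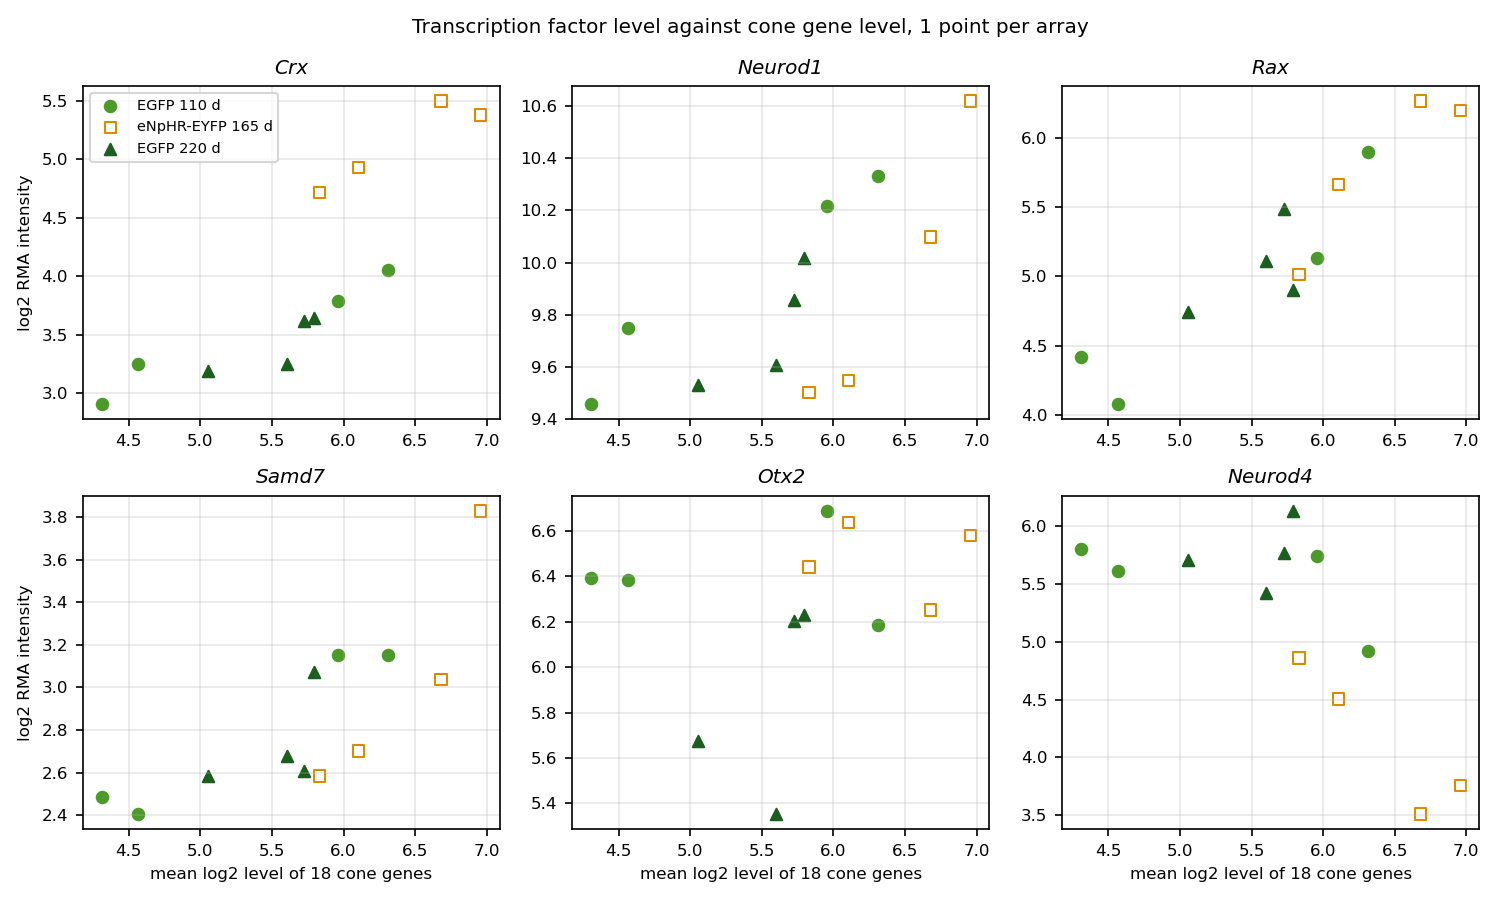
Log2 RMA intensity of 6 transcription factors against the mean log2 level of 18 cone genes, 1 point per array, for EGFP at 110 days (circles), EGFP at 220 days (triangles) and eNpHR-EYFP at 165 days (open squares). Over the EGFP arrays r is 0.91 for Crx and -0.34 for Neurod4, neither past the threshold after adjustment over all genes, and the eNpHR-EYFP squares lie highest for Crx and lowest for Neurod4.

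Of 46 measured genes known to be driven by Crx, 12 rose, 2 fell and the rest did not pass in eNpHR-EYFP cones by limma, where 23% of all genes rose and 10.1% fell. Their median log2 difference was 0.48, but 0.36 after quantile normalization, 0.27 with the 3 low-Arr3 arrays left out and -0.02 with the cone gene mean as a covariate. Among the rises with the smallest p were Grk1, the opsin kinase gene (0.78 ± 0.09), Gngt2, a cone transducin subunit gene (2.01 ± 0.39), Tulp1, of photoreceptor transport (1.28 ± 0.31), and Unc119, a lipid-binding carrier of transducin (0.85 ± 0.22). The 2 that fell were the channel subunit genes Cngb1 (-0.48 ± 0.13) and Kcnv2 (-0.49 ± 0.13). Grk1 lay near the array medians with EGFP, at 2.76 and 2.67 at 110 and 220 days, and was at 3.50 with eNpHR-EYFP. Kcnv2 lay near them with eNpHR-EYFP, at 2.81. After quantile normalization 3 of the 46 rose and 2 fell (all genes 16.1% and 12.4%), and of the 4 rises named Grk1 and Gngt2 still passed. With the cone gene mean as a covariate 3 rose and 7 fell (all genes 17.6% and 6.29%). With the 3 low-Arr3 arrays left out 7 rose and 2 fell (all genes 18.6% and 7.31%). Most of the cone genes in that mean are also on this target list. The covariate thus takes out part of the targets' own change by construction. The median of -0.02 and the counts with it therefore cannot be read as a result on the targets.

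Other regulators of photoreceptor fate moved both ways. Of 22 measured, 3 rose and 3 fell, with a median of 0.04, where 23% of all genes rose and 10.1% fell. Rxrg, a retinoid receptor of cones, went from 3.22 and 3.60 at 110 and 220 days to 5.05 with eNpHR-EYFP, a rise of 1.64 ± 0.35 (limma adjusted p = 0.00472). Nr1d1, a nuclear receptor of the clock, rose by 1.11 ± 0.18 and Six6, an eye field homeobox gene, by 0.84 ± 0.15, although quantile normalization ended the call of Six6 (0.36, adjusted p = 0.0745). Thrb, the thyroid hormone receptor gene of cone opsin choice, fell by 0.47 ± 0.11 at levels of 2.92, 2.90 and 2.44, near the array medians, and Onecut1 fell by 0.55 ± 0.10 and the Notch effector gene Hes5 by 0.78 ± 0.10. Nrl, the rod-defining factor, named for that role and not for its change, stood at 2.57, 2.61 and 2.55, with no call (limma adjusted p = 0.819). These means lay below the array medians, so whether the probe stood above background is unknown. Of 13 measured rod genes 4 rose and 1 fell, of 18 cone genes 6 rose and 2 fell, of 8 horizontal cell genes 3 rose and 1 fell, and of 11 ganglion cell genes 5 rose and 0 fell. These counts stand beside the same 23% and 10.1% of all genes. The part of these cells in the values of the 10 transcription factors was not tested.

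Relatives of the 10 genes were mostly dim. Of 14 measured, 6 rose and 1 fell, with a median of 0.10, where 23% of all genes rose and 10.1% fell. Those with the smallest p were Prdm8 (0.76 ± 0.09), Prdm2 (1.13 ± 0.23), the bipolar cell homeobox gene Vsx1 (0.83 ± 0.17) and Pitx1 (0.26 ± 0.08), and Prdm16 fell by 0.51 ± 0.07. Of 13 pigment epithelium genes, the cells that also make Otx2, 3 rose and 0 fell, with list means of 2.66 to 2.75, 2.65 to 2.85 and 2.73 to 2.83, near the array medians.

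**Figure D4:**
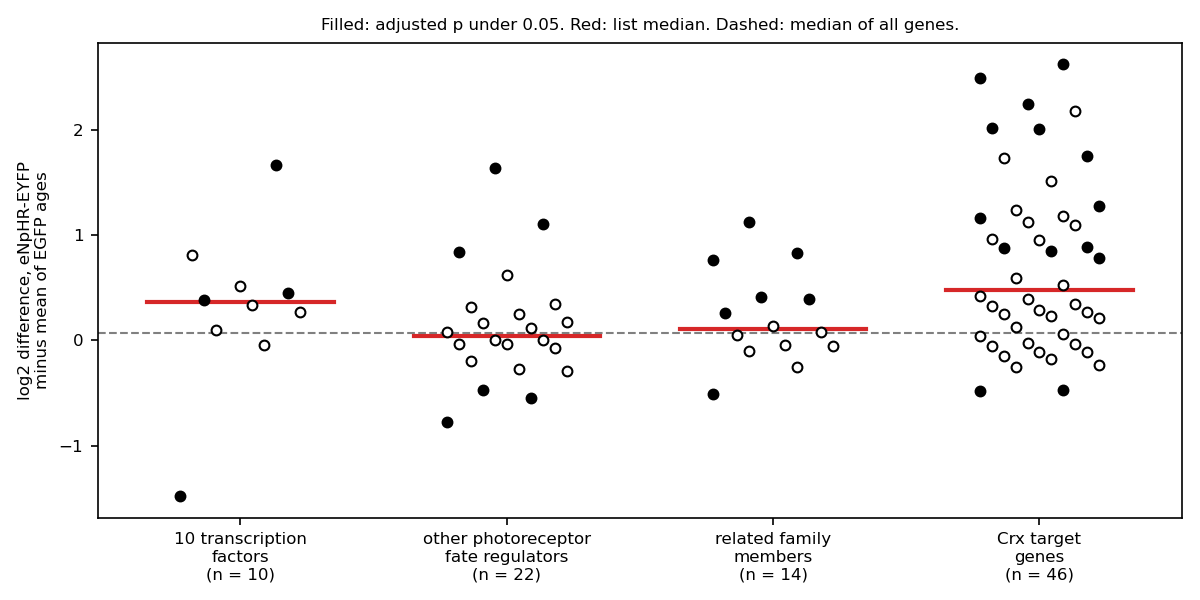
Log2 difference between eNpHR-EYFP and the mean of both EGFP ages for the genes of 4 lists, 1 point per gene, filled where the limma adjusted p passed, with the list median (red) and the median of all genes, 0.07 (dashed). The 46 Crx target genes have a median of 0.48 and the 10 transcription factors one of 0.36, with Crx at 1.67 and Neurod4 at -1.48.

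Likeness of pattern was measured as the root mean square difference between centred log2 levels over the 12 arrays, against 16813 other genes. Nearest to Crx were Ppa2, a mitochondrial pyrophosphatase gene (0.16), Grina (0.19) and Pcare, a gene of the photoreceptor cilium (0.21), where Crx itself had an SD of 0.86. Nearest to Neurod4 were the transporter gene Slc6a15 (0.30), the protocadherin gene Pcdhb21 (0.31) and St6galnac4 (0.32), against an SD of 0.81 for Neurod4 itself. Casz1 lay nearest to Hoxd1 (0.09), Armt1 (0.10) and Atp5h (0.10) at an SD of 0.26, and Mef2c to Ndrg1, Teddm1a and Krtap19-4 (each 0.11) at 0.26. The arrays fall into groups that differ in 6584 genes, so a small distance is a description of these 12 arrays only.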

How the data were processed

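RNA of the sorted cones was extracted with the PicoPure kit and labelled by the Affymetrix whole-transcript protocol, per the labels' protocols. Intensity values on a linear scale, 1 for each of 34760 probes on each array, were deposited, made with RMA and affy, per the submitters' processing notes; versions, genome build and which arrays were normalized together are not given in the sources used here. All 8 EGFP columns held 34729 values. They were realigned by a forward-backward algorithm in which rows can only be lost (t distribution with 3 degrees of freedom, scale 0.25, probability 0.001 per lost row, posterior at least 0.999), tested on simulated losses. This kept 34615 probes, 13584 of them in place and 21031 moved, and left out 114 rows. Across probes, EGFP arrays correlated with eNpHR-EYFP arrays at a median of 0.421 before and 0.944 after. Rows were placed so that these profiles match, so a rise is built in and is no separate check of the repair. The simulated losses were drawn among eNpHR-EYFP arrays alone, without a difference between constructs.

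The deposited intensities were turned into log2 values, without a pseudocount. Probes were named from the platform annotation, and the brightest probe that names 1 gene stood for it. The comparisons used limma 3.58.1 (R 4.3.3) and 1 model of 3 groups, with Benjamini-Hochberg adjustment over all probes and a threshold of 0.05. Of 245 list entries 226 were matched. Exact permutation tests ran in scipy 1.17.1. For the relation to cone genes p was adjusted over all genes in place of the 10 planned. The number of arrays, 4 a group, limits the precision, and p-values measure the spread between these arrays. The genes, lists, tests and alternatives were chosen with earlier results of these data known. Named are all 10 genes, up to 4 called genes in each direction from the lists of regulators, relatives and Crx targets, the called genes of some marker lists, and the 3 nearest in pattern to each called gene, leaving out predicted genes, clones, chemosensory receptors, small RNAs and pseudogenes.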

Additional observations from a re-analysis of the deposited data

How the results depend on the processing

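The count of called transcription factors was 3 higher and 1 lower between constructs and 0 between ages. It was 1 higher with the cone gene mean as a covariate, 0 higher in the fit of rows in place, where Crx and Casz1 are absent, and 2 lower after quantile normalization. Without 1 array each it was 2 to 5 higher, with 5 without replicate 2 of eNpHR-EYFP. The counts were also 3 and 1 with the replicate number as a block. Replicate numbers did not pair the arrays, as 2 of 12 same-numbered pairs had a correlation of deviations above 0.1 (-0.04 to 0.14). A fit of the compared groups alone equals the main one for the constructs.

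Crx and Neurod4 kept direction and call in every alternative in which they were fitted. Signs turned only for uncalled values. Between constructs these were Otx2 after quantile normalization (-0.10), Neurod1 with the covariate (-0.42), after quantile normalization (-0.36) and with the 3 low-Arr3 EGFP arrays left out (-0.11), and Samd7 with the covariate (-0.23). Between ages they were Prdm1 with array weights (0.0037), median centring (0.0068) and quantile normalization (0.0019), and, with the covariate and without the 3 arrays, Rax (-0.026 and -0.35), Mef2d (-0.048 and -0.15) and Casz1 (-0.013 and -0.11), and Mef2c with the covariate (-0.013). Without 1 array each, ranges between constructs were -0.086 to 0.015 for Mef2d and -0.13 to 0.24 for Neurod1. Between ages they were -0.27 to 0.11 for Crx, -0.075 to 0.084 for Prdm1, -0.089 to 0.52 for Rax, -0.041 to 0.063 for Mef2c, -0.054 to 0.12 for Mef2d, -0.20 to 0.054 for Samd7 and -0.041 to 0.13 for Casz1. The r with cone genes turned for Otx2 without 2 arrays (0.59) and for Mef2c without 2 arrays (0.078) and after quantile normalization (0.046). The cause was not tested.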
